A study of Mus musculus with 8 samples.

Results

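The 32 genes described here encode hydrolases and membrane proteins of the lysosome, together with the transcription factors of the MiT/TFE family that act on many of their promoters. They were taken by gene symbol from a count table of 24421 symbols of mouse liver, and all 32 were in it and passed the filter on low counts. By role they are 8 proteases, 8 glycosidases, 5 proteins of lipid and sphingolipid breakdown, 2 cholesterol exporters, 5 membrane proteins, progranulin and 3 MiT/TFE factors. The question asked of them was how their RNA differed between livers in which the actin capping protein had been removed from hepatocytes and control livers.

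Poly(A) RNA was sequenced in stranded libraries from PBS-perfused livers of C57BL/6N mice of 8 to 10 weeks of age. The 4 CAPZ_KO libraries came from Albumin-CreERT2;Capzb-fl/fl mice given 5 daily tamoxifen injections from an age of 4 to 6 weeks. In these animals the drug activates a Cre recombinase driven by the albumin promoter, which acts in hepatocytes and deletes part of Capzb, the beta subunit gene of capping protein; other liver cells keep it. The 4 WT libraries were from Capzb-fl/fl mice without Cre that were injected, or from uninjected Albumin-CreERT2;Capzb-fl/fl mice, and which library is of which kind is not labelled. All groups thus carried the floxed allele, and a difference in exposure to tamoxifen cannot be told apart from the deletion in any result. The labels do not state that each library is a separate animal, so the spread that p-values rest on is that between these samples. Library totals were 13122355 to 16984971 counts in CAPZ_KO and 12060350 to 18916315 counts in WT. Capzb stood at 72.5 ± 6.80 CPM in CAPZ_KO and at 120.2 ± 13.4 CPM in WT (CPM, read counts relative to the TMM-scaled library size, SD, n = 4 each), an edgeR log2 fold change of −0.73 ± 0.125 (SE, adjusted p = 0.00134). By library size alone it was −0.10, with an adjusted p of 0.442. Counts of Xist and of Y-linked genes marked CAPZ_KO 4 and WT 4 as female and the other 6 libraries as male.

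Lysosomes are acidic compartments in which proteins, glycans, lipids and glycogen delivered by endocytosis and autophagy are broken down. Their soluble enzymes carry a mannose 6-phosphate tag that sorting receptors recognise, while the limiting membrane is lined by heavily glycosylated proteins such as LAMP1 and LAMP2. TFEB, TFE3 and MITF bind an E-box motif in the promoters of many of these genes when they are in the nucleus, and mTORC1 at the lysosome surface holds them in the cytoplasm. In liver both hepatocytes and resident macrophages, the Kupffer cells, are rich in lysosomes.

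Most of the hydrolases that differed were higher in CAPZ_KO liver, mostly by less than 2-fold, while the membrane proteins differed in both directions. Of the 32 genes, 15 were higher in CAPZ_KO and 4 lower by edgeR (adjusted p under 0.05), and 13 did not pass. Those 19 are 59.4% of the 32, against 41.4% of the 12985 genes tested in either direction; by direction, 46.9% of the 32 were higher against 22.4% of all, and 12.5% were lower against 19.0% of all. The median log2 fold change was 0.42 over the 32 genes and −0.003 over all genes tested. In 15 of the 32 every CAPZ_KO library lay above every WT library, and in 3 every one lay below, against 22.1% and 18.2% of all tested genes. Only Cd63, Ctss and Lgmn among the 19 passed 2-fold, and the other 16 lay below it. Of the raw counts, the 32 genes took 1.09%, 1.16%, 1.18% and 1.27% in the CAPZ_KO libraries and 0.528%, 0.651%, 0.595% and 0.694% in the WT libraries. After TMM their summed level was 8205, 9819, 9380.3 and 10621 CPM in the CAPZ_KO libraries and 6830 (WT 1), 8101, 7456 and 8199 CPM in the WT libraries, so that CAPZ_KO 1 and WT 4 were nearly level. CAPZ_KO 1 was the lowest library of its group for 23 of the 32 genes and WT 1 for 20.

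**Figure D1:**
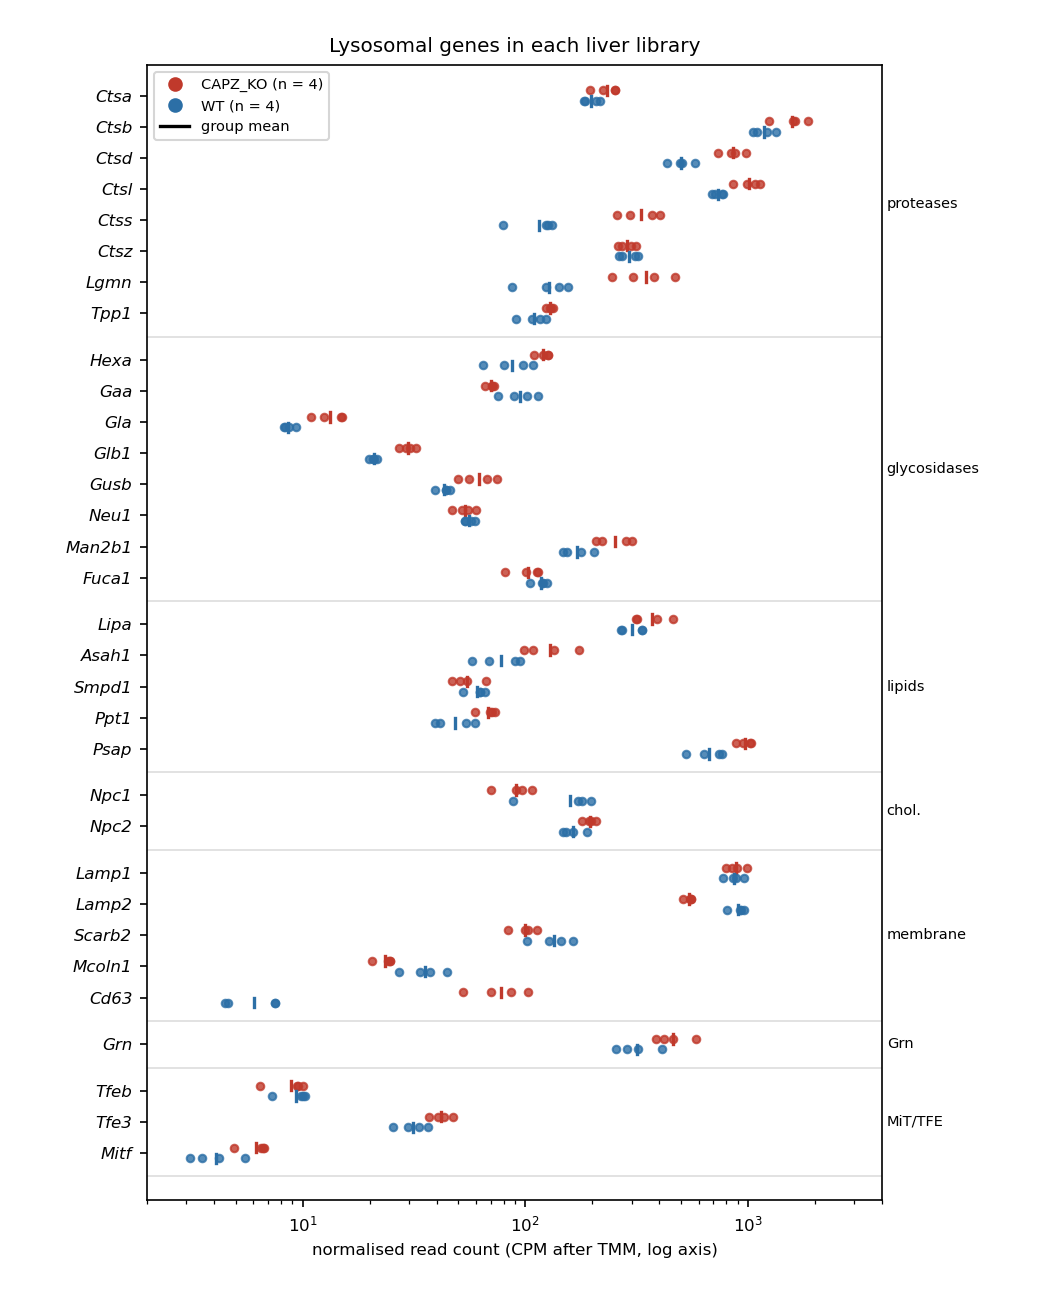
Normalised read count (CPM after TMM, log axis) of each of the 32 genes in the 4 CAPZ_KO libraries (upper points of each row) and the 4 WT libraries (lower points), ordered by role, with vertical ticks at the group means. Cd63, Ctss and Lgmn are the genes whose groups lie farthest apart. Lamp2, Mcoln1 and, by a narrow gap, Gaa have all CAPZ_KO points to the left of the WT points.

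How many genes passed depended on single libraries and on scaling. The number of higher members was 7 without CAPZ_KO 2, 8 without CAPZ_KO 3, 9 without CAPZ_KO 4 and 7 without WT 3, and the number of lower members was 2 without WT 2. Over all tested genes, 2421 of 13089 were higher without CAPZ_KO 2, 2371 of 13103 without CAPZ_KO 3 and 2704 of 13141 without CAPZ_KO 4. Without WT 3, 2476 of 13233 were higher, and without WT 2, 2309 of 13234 were lower. The share of higher members thus exceeded that of all genes only narrowly without CAPZ_KO 2 or WT 3. In those 2 fits the members' median exceeded that of all genes by 0.387 and 0.393. Ctsd, Ctss, Lgmn, Gla, Glb1, Lamp2, Mcoln1 and Cd63 passed whichever single library was left out. When counts were scaled by library size alone, without TMM factors, the median of all tested genes moved by 0.622 on the log2 scale. Then 27 members were higher and 0 lower by edgeR, also at an unadjusted p under 0.05 (with TMM, 4 were lower by edgeR and limma-voom and 5 by DESeq2). Of all 12985 tested genes, 7665 were higher and 700 lower with that scaling. Thus 91.6% of all calls were higher against 54.1% with TMM, and the members' median exceeded that of all genes by 0.423, against 0.428 with TMM. Directions given for lower genes are therefore relative to the bulk of genes in the same library.

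**Figure D2:**
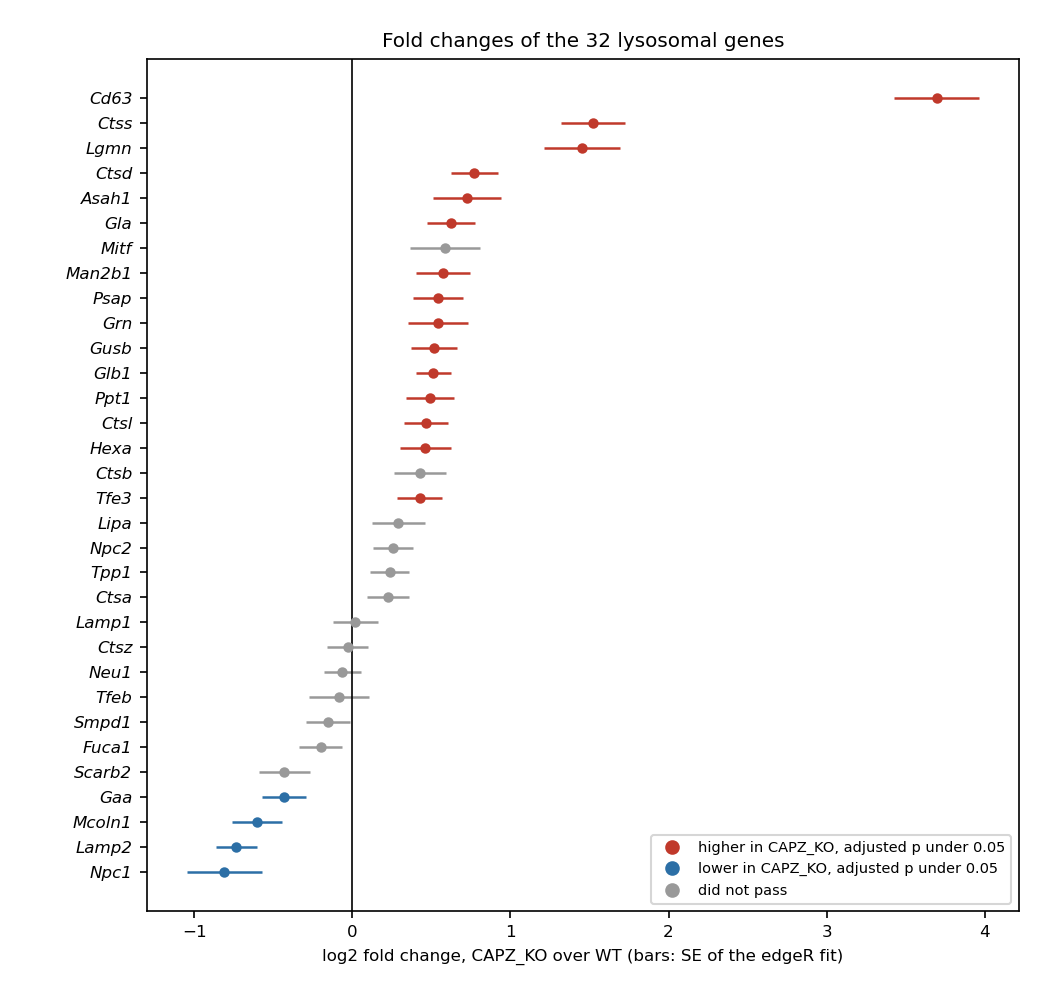
Log2 fold change of CAPZ_KO over WT for each of the 32 genes, sorted, with bars of 1 SE from the edgeR fit. Red points are the 15 genes higher and blue points the 4 genes lower in CAPZ_KO (adjusted p under 0.05), of which Gaa and Mcoln1 take a positive sign when counts are scaled by library size alone. Grey points did not pass.

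Among the proteases 4 of 8 were higher in CAPZ_KO, against 22.4% of all tested genes, and the median log2 fold change was 0.44. By edgeR, DESeq2 or limma-voom 0 were lower, also at an unadjusted p under 0.05. Ctss encodes cathepsin S, a cysteine protease of antigen-presenting cells that trims the invariant chain of MHC class II. It held 258, 405, 295 and 369 CPM in the CAPZ_KO libraries and 79.7, 125, 127 and 131 CPM in the WT libraries. The lowest CAPZ_KO library, CAPZ_KO 1, lay well above the highest WT library, and WT 1 stood below the other 3 WT libraries. In log2 terms the difference was 1.52 ± 0.204 (SE, adjusted p = 0.000333 by edgeR), a ratio of 2.87. Lgmn encodes legumain, an asparaginyl endopeptidase that cleaves several cathepsins into their mature chains. It held 245, 379, 303 and 468 CPM in the CAPZ_KO libraries and 87.2, 142, 124 and 156 CPM in the WT libraries. The order of the CAPZ_KO libraries differed from that of Ctss only in which of CAPZ_KO 2 and CAPZ_KO 4 was the highest, the groups did not overlap, and the log2 fold change was 1.45 ± 0.238 (SE, adjusted p = 0.000994 by edgeR). Ctss lies on chromosome 3 (chr3:95526786-95556403, plus strand, GRCm38) and Lgmn on chromosome 12 (chr12:102394084-102439813, minus strand).

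Ctsd, the gene of the aspartic protease cathepsin D (chr7:142375911-142388038, minus strand), had the highest level of the set per kilobase of annotated exon in CAPZ_KO liver. Its libraries held 737, 843, 879 and 975 CPM in CAPZ_KO and 434, 494, 506 and 576 CPM in WT, with no overlap. Its log2 fold change was 0.77 ± 0.15 (SE, adjusted p = 0.00256 by edgeR). Ctsl, the cysteine endopeptidase cathepsin L, was at 857, 1074, 991 and 1129 CPM in CAPZ_KO libraries and at 775, 764, 688 and 709.8 CPM in WT libraries. Again the groups did not overlap, but the gap between CAPZ_KO 1 and WT 1 was small. Its log2 fold change was 0.46 ± 0.141 (SE, adjusted p = 0.0239 by edgeR), and the adjusted p was 0.0661 to 0.0877 without CAPZ_KO 2, CAPZ_KO 3, CAPZ_KO 4 or WT 3.

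The other 4 proteases did not pass by edgeR, and Ctsb passed by DESeq2. Ctsb, the gene of cathepsin B, averaged 1579 ± 252 CPM in CAPZ_KO and 1176 ± 129 CPM in WT (SD, n = 4 each), and its libraries overlapped because CAPZ_KO 1 held 1244 CPM and WT 4 held 1338 CPM. Its edgeR adjusted p was 0.062, and it was 0.0374 without CAPZ_KO 1, 0.0341 with upper-quartile scaling and 0.0408 with sex as a term. By DESeq2 the adjusted p was 0.0256. Ctsa, a carboxypeptidase that also stabilises the beta-galactosidase and sialidase of the lysosome, had a log2 fold change of 0.23 ± 0.134 (SE, adjusted p = 0.204 by edgeR). Tpp1, which removes tripeptides from protein ends, averaged 129 ± 3.62 CPM in CAPZ_KO and 109.7 ± 14.5 CPM in WT (SD, n = 4 each, edgeR adjusted p = 0.155), with CAPZ_KO 2 and WT 2 level at 124 CPM. The carboxypeptidase gene Ctsz was at 287 ± 24.0 CPM in CAPZ_KO and 293 ± 28.7 CPM in WT (SD, n = 4 each), with an edgeR adjusted p of 0.871.

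Glycosidases take sugars off glycoproteins, glycolipids and glycogen. Of the 8, 5 were higher and 1 lower, against 22.4% and 19.0% of all tested genes, and the median log2 fold change was 0.49. Among those 5, only Glb1 and Gla passed whichever single library was left out. The steadiest was Glb1, the gene of the beta-galactosidase that acts on GM1 ganglioside and keratan sulfate. It held 30.2, 29.1, 32.3 and 27.1 CPM in the CAPZ_KO libraries and 20.8, 19.9, 21.0 and 21.6 CPM in the WT libraries. Both groups were tight and apart, and the log2 fold change was 0.51 ± 0.109 (SE, adjusted p = 0.00422 by edgeR). Gla, the gene of alpha-galactosidase A, which cleaves globotriaosylceramide, held 15.1, 10.9, 14.9 and 12.4 CPM in CAPZ_KO libraries and 8.26, 8.29, 8.66 and 9.34 CPM in WT libraries. It too had groups that did not overlap, with the wider spread in CAPZ_KO, and a log2 fold change of 0.62 ± 0.15 (SE, adjusted p = 0.00799 by edgeR).

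Gusb, Man2b1 and Hexa also passed, each with less margin. Gusb, the beta-glucuronidase of glycosaminoglycan breakdown, had 49.8, 56.1, 67.2 and 74.9 CPM in CAPZ_KO and 39.4, 46.1, 44.0 and 43.8 CPM in WT (log2 fold change 0.52, edgeR adjusted p = 0.0159, and 0.065 without CAPZ_KO 3). Man2b1, the acid alpha-mannosidase, averaged 254 ± 46.7 CPM in CAPZ_KO and 171 ± 25.4 CPM in WT (SD, n = 4 each). Its edgeR adjusted p was 0.0208, and 0.054 to 0.0795 without CAPZ_KO 2, CAPZ_KO 4 or WT 3. Hexa, the alpha subunit of the hexosaminidase that degrades GM2 ganglioside, averaged 120.5 ± 7.73 CPM in CAPZ_KO and 87.5 ± 19.1 CPM in WT (SD, n = 4 each), with groups apart. Its edgeR adjusted p of 0.0422 became 0.0598 to 0.115 when any CAPZ_KO library, WT 1 or WT 3 was left out. Without both female libraries the adjusted p was 0.103 for Ctsl, 0.0719 for Gusb, 0.0691 for Man2b1 and 0.0709 for Hexa.

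Gaa, the acid alpha-glucosidase that digests glycogen, was the 1 glycosidase that was lower. It held 72.6, 71.2, 66.0 and 70.8 CPM in CAPZ_KO libraries and 114, 102, 88.9 and 75.2 CPM in WT libraries. The CAPZ_KO libraries were close together and WT 4 was nearly as low as they were. Its log2 fold change came to −0.44 ± 0.139 (SE, adjusted p = 0.0288 by edgeR). It was not called without CAPZ_KO 2, CAPZ_KO 3, CAPZ_KO 4 or WT 2 (adjusted p 0.0502 to 0.0681) or with upper-quartile scaling (0.0659), and by library size alone its log2 fold change was 0.20. The sialidase gene Neu1 and the fucosidase gene Fuca1 had log2 fold changes of −0.06 and −0.20, with edgeR adjusted p of 0.683 and 0.265.

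Of the genes of lipid breakdown 3 of 5 were higher in CAPZ_KO, against 22.4% of all tested genes. All 3 encode proteins that act on sphingolipids or acylated proteins. Psap encodes prosaposin, which is cut into the saposins that present sphingolipids to their enzymes. It held 887, 1019.8, 947 and 1033 CPM in CAPZ_KO libraries and 529, 739, 632 and 768 CPM in WT libraries. No WT library reached the lowest CAPZ_KO library. This gave a log2 fold change of 0.54 ± 0.157 (SE, adjusted p = 0.0189 by edgeR), with adjusted p of 0.0515 to 0.0581 without CAPZ_KO 2, CAPZ_KO 3 or WT 3. Asah1, the acid ceramidase, held 98.7, 135, 108 and 175 CPM in CAPZ_KO libraries and 57.8, 90.1, 69.1 and 94.5 CPM in WT libraries, a log2 fold change of 0.73 ± 0.215 (SE, adjusted p = 0.0209 by edgeR). CAPZ_KO 1 and WT 4 were close, and the adjusted p was 0.0546 to 0.061 without CAPZ_KO 2, CAPZ_KO 4 or WT 3. Ppt1, a thioesterase that removes palmitate from proteins, averaged 68.3 ± 6.01 CPM in CAPZ_KO and 48.6 ± 9.70 CPM in WT (SD, n = 4 each, edgeR adjusted p = 0.027). That p was 0.0524 to 0.0799 without CAPZ_KO 2, CAPZ_KO 3, CAPZ_KO 4, WT 1 or WT 3. Lipa, the acid lipase of cholesteryl esters and triglycerides, and Smpd1, the acid sphingomyelinase, had log2 fold changes of 0.29 and −0.15, with edgeR adjusted p of 0.188 and 0.4.

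The 2 proteins that pass cholesterol out of the lysosome differed in sign. Npc1, the membrane transporter, held 96.7, 107, 70.2 and 90.4 CPM in CAPZ_KO libraries and 88.2, 180.2, 172 and 197 CPM in WT libraries. WT 1 lay among the CAPZ_KO libraries, so the groups overlapped, while the other 3 WT libraries were higher than any CAPZ_KO library. Its log2 fold change was −0.81 ± 0.239 (SE, adjusted p = 0.0209 by edgeR), with an adjusted p of 0.0505 without WT 2, 0.0847 without both female libraries, and 0.499 by library size alone. Npc2, the soluble protein that hands cholesterol to it, averaged 194 ± 11.6 CPM in CAPZ_KO and 163 ± 18.8 CPM in WT (SD, n = 4 each), with an edgeR adjusted p of 0.13.

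The membrane proteins held the largest rise of the set, in Cd63, and the 2 falls that passed whichever library was left out, in Lamp2 and Mcoln1 (by library size alone neither passed, and Mcoln1 turned). Cd63, a tetraspanin of late endosomes, lysosomes and secreted vesicles (chr10:128900989-128912822, plus strand, GRCm38), held 86.2, 70.1, 102 and 52.3 CPM in CAPZ_KO libraries and 7.51, 4.61, 4.47 and 7.52 CPM in WT libraries. Every CAPZ_KO library was several times above every WT library, and CAPZ_KO 4 was the lowest of its group. The log2 fold change was 3.70 ± 0.268 (SE, adjusted p = 1.35e-05 by edgeR), a ratio of 13.0, and no library had fewer than 63 reads. A related pseudogene, Cd63-ps, is in the annotation, and how reads that match both were counted is not known.

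Lamp2 and Lamp1 encode the 2 major glycoproteins of the lysosomal membrane, of which LAMP2 also takes part in the fusion of autophagosomes and in chaperone-mediated autophagy. Lamp2 (chrX:38401357-38456454, minus strand) held 554, 510.4, 548 and 556 CPM in CAPZ_KO libraries and 802, 955, 930.0 and 922 CPM in WT libraries. Lamp1 (chr8:13159161-13175338, plus strand) held 794, 889, 847 and 995 CPM in CAPZ_KO libraries and 773, 888, 962 and 857 CPM in WT libraries. All CAPZ_KO libraries were below all WT libraries for Lamp2, and the groups were interleaved for Lamp1. The log2 fold changes were −0.73 ± 0.129 (SE, adjusted p = 0.00148 by edgeR) for Lamp2 and 0.02 ± 0.141 (SE, adjusted p = 0.926 by edgeR) for Lamp1. By library size alone that of Lamp2 was −0.11, with an adjusted p of 0.481. The ratio of Lamp2 to Lamp1 within a library, which no scaling changes and which was chosen after the values were seen, was 0.698, 0.574, 0.647 and 0.559 in the CAPZ_KO libraries and 1.04, 1.08, 0.967 and 1.08 in the WT libraries.

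Mcoln1, the gene of a calcium channel that opens onto the cytoplasm, held 20.5, 24.6, 24.2 and 24.7 CPM in CAPZ_KO libraries and 27.0, 33.7, 37.4 and 44.3 CPM in WT libraries. The groups did not overlap, and the spread was wider in WT. The log2 fold change was −0.60 ± 0.158 (SE, adjusted p = 0.0123 by edgeR) and was 0.01 by library size alone, with an adjusted p of 0.953. Scarb2, the receptor that carries glucocerebrosidase to lysosomes, averaged 99.7 ± 12.0 CPM in CAPZ_KO and 134 ± 26.0 CPM in WT (SD, n = 4 each). Its edgeR adjusted p was 0.0558, and 0.0122 without WT 1 or 0.0481 with DESeq2 size factors. By the DESeq2 test the adjusted p was 0.0301.

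Grn encodes progranulin, a secreted protein that is also cut into granulins inside lysosomes. It held 386, 460.4, 419.5 and 582 CPM in CAPZ_KO libraries and 286, 321, 254 and 410.3 CPM in WT libraries. WT 4 lay above CAPZ_KO 1, so the groups overlapped. On the log2 scale the difference was 0.54 ± 0.19 (SE, adjusted p = 0.0432 by edgeR), and the adjusted p was 0.0717 to 0.121 without CAPZ_KO 2, CAPZ_KO 3, CAPZ_KO 4, WT 1, WT 2 or WT 3.

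Levels per kilobase were taken over the length of all annotated exons of a gene, which can exceed that of the transcript expressed. That length was 2.35 kb for Ctsd and 6.49 kb for Ctsl, so the order of genes depends on the annotation as well. On this scale Ctsd led in CAPZ_KO with 365 ± 41.8 CPM per kb, ahead of Psap with 354 ± 24.8 and Lamp1 with 329 ± 31.8 (SD, n = 4 each). Neighbours in that order lay within 1 SD of each other. In WT the order was Lamp1 with 325 ± 29.2, Psap with 243 ± 39.7, Ctsd with 214 ± 24.7, Ctsz with 203 ± 19.9 and Ctsb with 194 ± 21.3 CPM per kb (SD, n = 4 each), where Lamp1 stood apart and each of the others differed from the next by less than the larger of their SDs. Cd63 ranked 19 of 32 in CAPZ_KO with 21.1 ± 5.83 CPM per kb and 31 of 32 in WT with 1.64 ± 0.467. The lowest level in both groups was that of Mitf, with 0.999 ± 0.137 CPM per kb in CAPZ_KO and 0.661 ± 0.169 in WT (SD, n = 4 each).

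Of the MiT/TFE factors themselves, Tfe3 was higher in CAPZ_KO, and Tfeb and Mitf did not pass by edgeR. Tfe3 held 40.5, 47.3, 43.1 and 37.0 CPM in CAPZ_KO libraries and 33.2, 36.7, 29.7 and 25.3 CPM in WT libraries. The groups were apart by a narrow gap between CAPZ_KO 4 and WT 2. The log2 fold change was 0.42 ± 0.143 (SE, adjusted p = 0.036 by edgeR), with adjusted p of 0.0823 to 0.147 without CAPZ_KO 1, CAPZ_KO 2, CAPZ_KO 3, WT 3 or WT 4, and 0.0721 without both female libraries. Tfeb averaged 8.85 ± 1.63 CPM in CAPZ_KO and 9.35 ± 1.38 CPM in WT (SD, n = 4 each, edgeR adjusted p = 0.74). Mitf averaged 6.19 ± 0.846 CPM in CAPZ_KO and 4.10 ± 1.05 CPM in WT (SD, n = 4 each). Its edgeR adjusted p was 0.0547, and it was 0.0202 without WT 4, 0.0447 without both female libraries, 0.0349 with upper-quartile scaling and 0.0371 with sex as a term. By DESeq2 the adjusted p was 0.0405. RNA levels do not show how much of these proteins was in the nucleus.

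Promoter windows from RefSeq (GRCm38.p6, 250 bases before to 50 after a transcription start) were found for 29 of the 32 genes, in 37 windows; Asah1, Ctsb and Npc1 had none. They were searched for CACGTG, the palindromic core of the E-box that MiT/TFE factors bind, and, on both strands, for longer forms that contain it. CACGTG was in 9 of the 37 windows, each of another gene, and in 7.15% of all 32851 windows of that length. TCACGTG was in 8 of the 37 windows against 3.77% of all windows, and TCACGTGA in 4 (Ctsa, Ctsd, Gla and Mcoln1) against 0.974%. The full palindrome GTCACGTGAC was in 0 of the 37, against 0.326% of all windows. TCATGTG, a variant that does not overlap the others, was in 7 of the 37 (Ctsa, Ctss, Gla, Grn, Ppt1, Scarb2 and Tpp1) against 3.77% of all windows. The stretches below are shown because they hold the E-box core, in capitals, in genes that were higher (Lgmn, Ctsd, Gla and Glb1), not called (Lamp1) and lower (Gaa and Mcoln1), each read 5′ to 3′ on the strand of its gene.
Lgmn, chr12:102439116-102439161, minus strand: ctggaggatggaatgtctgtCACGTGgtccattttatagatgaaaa
Ctsd, chr7:142387908-142387937, minus strand: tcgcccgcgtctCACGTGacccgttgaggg
Gla, chrX:134601174-134601252, minus strand: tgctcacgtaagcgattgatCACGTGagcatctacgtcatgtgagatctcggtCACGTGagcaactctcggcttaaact
Glb1, chr9:114401010-114401055, plus strand: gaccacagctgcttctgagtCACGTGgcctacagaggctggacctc
Lamp1, chr8:13159080-13159160, plus strand: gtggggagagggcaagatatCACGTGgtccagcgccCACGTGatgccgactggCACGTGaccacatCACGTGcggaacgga
Gaa, chr11:119267803-119267848, plus strand: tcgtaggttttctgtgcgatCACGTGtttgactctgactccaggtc
Mcoln1, chr8:3500462-3500491, plus strand: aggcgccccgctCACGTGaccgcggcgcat

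An E-box core in the window did not go with 1 direction. Of the 9 genes that hold one, 5 were higher, 2 lower and 2 not called, with a median log2 fold change of 0.46; of the 20 matched genes that hold none, 9 were higher, 1 lower and 10 not called, with a median of 0.36. Lamp1 holds 4 of the 16 cores, starting 61, 45, 28 and 15 bases before its transcription start, and had a log2 fold change of 0.02. Mcoln1 holds 1 within TCACGTGA, 45 bases before its start, and was lower (0.01 by library size alone), while Ctsd holds 1 within TCACGTGA 98 bases before its start and was higher. Cd63 and Ctss, with the largest rises, hold no CACGTG in these windows, which says nothing of sites elsewhere. The core of Lgmn lies 49 bases before the second of the starts that RefSeq gives for it. A match in sequence is not a binding site.

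**Figure D3:**
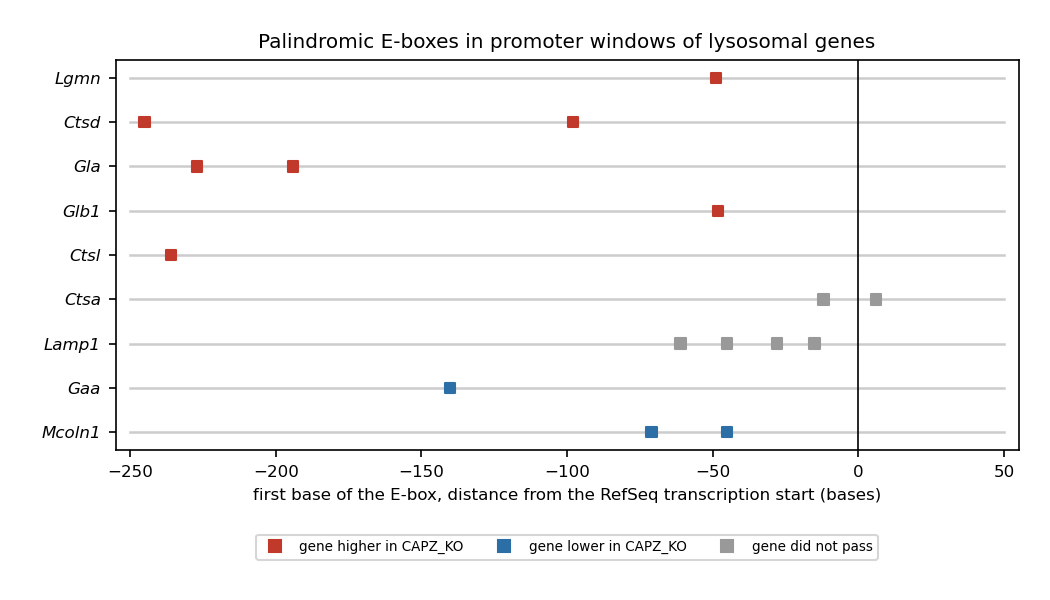
Position of each CACGTG core in the RefSeq promoter windows of the 9 genes that hold one, as the distance in bases of its first base from the transcription start (vertical line), with genes sorted by log2 fold change. Of the 16 cores, 10 start within 100 bases before the start, and genes that were higher (red), lower (blue, which take a positive sign by library size alone) and not called (grey) all hold them.

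The other genes of the lysosome and its control were followed in 8 lists of textbook genes. Their counts are by edgeR, and those with TMM are to be read against the 22.4% of all tested genes that were higher and the 19.0% that were lower. By library size alone 7665 of all 12985 tested genes were higher and 700 lower, and counts with that scaling are to be read against these. Every list but those of autophagy and cystatins then had 11 to 28 genes higher and 0 lower, with 0 lower also at an unadjusted p under 0.05. Of the lower genes named in them, Atg3 and Ulk1 were still called with that scaling and the others were not. Of 34 further luminal proteins, 9 were higher and 3 lower (28 and 0 by library size alone), with a median log2 fold change of 0.22. Galns, the sulfatase that starts keratan sulfate breakdown, averaged 35.0 ± 4.10 CPM in CAPZ_KO and 11.1 ± 1.32 CPM in WT (SD, n = 4 each), a log2 fold change of 1.66 (edgeR adjusted p = 3.22e-05). Prcp, a carboxypeptidase, and Ctsk, cathepsin K, had 0.93 and 1.52 (edgeR adjusted p = 0.00101 and 0.00319). Hyal1, a hyaluronidase, and Scpep1, a serine carboxypeptidase, had −0.88 and −0.51 (edgeR adjusted p = 0.0019 and 0.00722), while by library size alone Hyal1 was at −0.27 (adjusted p = 0.176) and Scpep1 at 0.12. Ctsh, cathepsin H, had −0.45 with an edgeR adjusted p of 0.0438, which was up to 0.0953 without CAPZ_KO 1, CAPZ_KO 3, WT 2, WT 3 or WT 4, was 0.088 with upper-quartile scaling, and its log2 fold change was 0.16 by library size alone.

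Of 26 further membrane proteins tested, 6 were higher and 5 lower (15 and 0 by library size alone), and their median was 0.03, against −0.003 over all genes. The higher ones included Cd68, a macrophage glycoprotein related to the LAMPs, at 74.9 ± 11.7 CPM in CAPZ_KO and 29.9 ± 10.7 CPM in WT (SD, n = 4 each, log2 fold change 1.32, edgeR adjusted p = 0.00296). They also included Laptm5, of blood cells, and Slc15a3, a peptide and histidine transporter, at 1.26 and 1.29 (edgeR adjusted p = 0.00313 and 0.000378). Tpcn1, an endolysosomal cation channel, and Slc17a5, the sialic acid exporter, had −0.72 and −0.49 (edgeR adjusted p = 0.00671 and 0.0138), while by library size alone Tpcn1 was at −0.10 (adjusted p = 0.655) and Slc17a5 at 0.14. Tmem106b, a membrane protein of late endosomes and lysosomes, had −0.67 with overlapping groups (edgeR adjusted p = 0.0282, and up to 0.064 without CAPZ_KO 2, CAPZ_KO 3, WT 3 or WT 4).

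The proton pump of the lysosome, the V-ATPase, had 5 of 20 tested subunits higher and 0 lower by edgeR (1 lower at an unadjusted p under 0.05, 1 by DESeq2 and 0 by limma-voom), against 16 higher by library size alone, with a median of 0.07. Atp6v0e2, an isoform of the e subunit, averaged 6.30 ± 1.71 CPM in CAPZ_KO and 1.09 ± 0.347 CPM in WT (SD, n = 4 each), a log2 fold change of 2.50 (edgeR adjusted p = 0.00019). Its more abundant isoform Atp6v0e had 0.84, and Atp6v1b2, a B subunit of the part that hydrolyses ATP, had 0.56 (edgeR adjusted p = 0.00146 and 0.00884). Atp6v1b1 had too few counts to be tested. Atp6v1c2, Atp6v1e2, Atp6v1g3 and Atp6v0c were listed at 0 in all 8 libraries; Atp6v0c encodes the proteolipid subunit that cells use widely, and how reads matching several genes were counted is not known.

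Most genes of enzyme delivery and lysosome movement did not pass, and their counts of higher genes showed no clear excess over the 22.4% of all tested genes. In the 20 genes of sorting, 3 were higher and 1 lower (18 and 0 by library size alone, median 0.18). Igf2r, the large mannose 6-phosphate receptor, averaged 70.3 ± 13.9 CPM in CAPZ_KO and 36.0 ± 4.49 CPM in WT (SD, n = 4 each), a log2 fold change of 0.96 (edgeR adjusted p = 0.00104), and Cln6, which helps enzymes out of the endoplasmic reticulum, had 1.19 (edgeR adjusted p = 0.00139). Vps29 of the retromer had 0.32 (edgeR adjusted p = 0.0274, and up to 0.107 without any 1 CAPZ_KO library, WT 2 or WT 3). Gnptg, a subunit of the enzyme that starts the mannose 6-phosphate tag, had −0.49 (edgeR adjusted p = 0.00782) and 0.13 by library size alone. In the 12 genes of tethering and transport, 3 were higher and 1 lower (11 and 0 by library size alone, median 0.15). Arl8a and Plekhm2, which couple lysosomes to kinesin, had 1.12 and 1.01 (edgeR adjusted p = 7.02e-05 and 0.00181), while Rilp, which couples them to dynein, had −0.76 (edgeR adjusted p = 0.00704). Vps18, of the tethering complexes, had 0.44 (edgeR adjusted p = 0.017, and up to 0.0685 without CAPZ_KO 1 or CAPZ_KO 2).

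Among the genes of mTORC1 and its Rag GTPases, 3 of 19 tested were higher and 3 lower (13 and 0 by library size alone), around a median of −0.04, and Rragd had a fold change of the size of that of Cd63. Rragd, which encodes a subunit of the Rag dimer that brings mTORC1 and MiT/TFE factors to the lysosome, held 41.4, 31.6, 31.5 and 19.0 CPM in CAPZ_KO libraries and 2.25, 2.04, 2.70 and 1.82 CPM in WT libraries. CAPZ_KO 4 was the lowest of its group, as for Cd63, and still far above WT; the log2 fold change was 3.81 ± 0.258 (SE, adjusted p = 1.03e-05 by edgeR). Tfec, a further MiT/TFE gene that is found in macrophages, averaged 9.85 ± 2.91 CPM in CAPZ_KO and 4.24 ± 1.68 CPM in WT (SD, n = 4 each, edgeR adjusted p = 0.0134). Mlst8, an mTOR complex subunit, had 0.46 (edgeR adjusted p = 0.0266, and up to 0.102 without CAPZ_KO 2, CAPZ_KO 3, CAPZ_KO 4 or WT 3). Lamtor4, of the Ragulator anchor, had −0.64 (edgeR adjusted p = 0.00716). Flcn and Fnip2, which together act on the Rag dimer, had −0.67 and −0.84 (edgeR adjusted p = 0.0295 for both). Without CAPZ_KO 1, CAPZ_KO 3 or WT 3 neither passed, nor Flcn without CAPZ_KO 4, nor Fnip2 without WT 2 or WT 4, with adjusted p of up to 0.0663 for Flcn and 0.0754 for Fnip2.

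Autophagy genes had the lowest median of the 8 lists, −0.17, with 1 of 23 tested higher and 8 lower. The lower ones included Ulk1, the kinase that starts autophagy, at 39.7 ± 3.72 CPM in CAPZ_KO and 95.9 ± 36.5 CPM in WT (SD, n = 4 each), a log2 fold change of −1.27 (edgeR adjusted p = 0.00166). Atg3, an enzyme of LC3 lipidation, and Gabarapl1, an LC3 relative, had −1.01 and −0.99 (edgeR adjusted p = 0.000497 and 0.00115). Sqstm1, the cargo receptor p62, was the 1 higher gene, at 692 ± 86.0 CPM in CAPZ_KO and 420.0 ± 82.2 CPM in WT (SD, n = 4 each, log2 fold change 0.72, edgeR adjusted p = 0.00814). By library size alone this list had 12 higher and 2 lower. Of the cystatins, inhibitors of cysteine cathepsins, Cstb averaged 184 ± 28.8 CPM in CAPZ_KO and 46.7 ± 5.10 CPM in WT (SD, n = 4 each), a log2 fold change of 1.98 (edgeR adjusted p = 1.66e-05), and Cst3 did not pass.

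**Figure D4:**
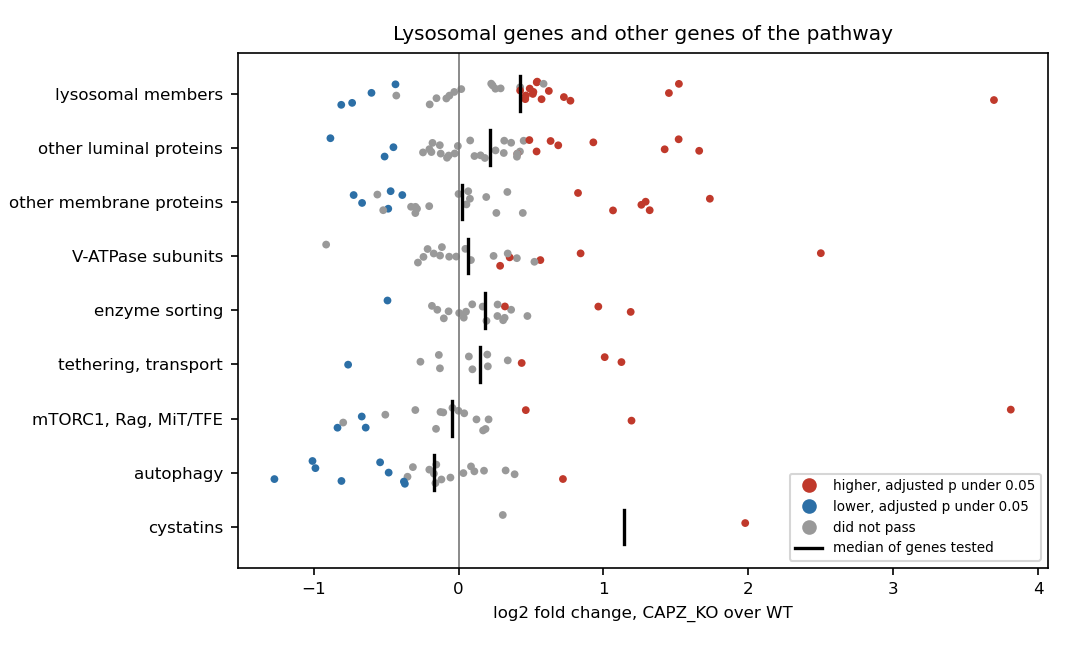
Log2 fold change of CAPZ_KO over WT for each tested gene of the 32 members (top row) and of 8 lists of related genes, with the vertical mark at each list's median. The members have a median of 0.42 and autophagy genes one of −0.17 (the signs of lower genes near 0 turn when counts are scaled by library size alone), and Cd63 and Rragd lie farthest to the right.

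Bulk libraries do not tell fewer cells of a type from less RNA per cell, and markers of other liver cells moved in these libraries. Counts of markers called are to be read against the 22.4% of all tested genes that were higher and the 19.0% that were lower. Of 10 hepatocyte markers 8 were lower, and the summed level of the list was 54223 to 77118 CPM in CAPZ_KO and 190084 to 237549 CPM in WT. A large part of each sum was Alb alone, at 26297 to 43080 CPM in CAPZ_KO and 122841 to 175283 CPM in WT. Of 8 general macrophage markers 6 were higher, and their sum was 1407, 2218, 1859 and 2402 CPM in CAPZ_KO libraries and 734, 1069, 920.0 and 1349.9 CPM in WT libraries. Of 6 Kupffer cell markers 3 were higher, with sums of 963, 2156, 1846 and 3260.2 CPM in CAPZ_KO libraries and 459, 1078, 911 and 1298 CPM in WT libraries, which overlap. For both lists CAPZ_KO 1 and WT 1 were the lowest of their groups, as they were for Ctss and Lgmn. That order is not particular to macrophage markers. It also held for the sums of the endothelial markers and of the further luminal proteins. Of the 32 genes, CAPZ_KO 1 was lowest of its group for 23 and WT 1 for 20. Of 7 markers of monocyte-derived macrophages 6 were higher, and their sums were 99.4, 87.0, 75.4 and 56.4 CPM in CAPZ_KO libraries and 8.90, 7.57, 3.90 and 18.0 CPM in WT libraries. CAPZ_KO 4 was the lowest CAPZ_KO library for that list, for the cholangiocyte markers and for Cd63. The ratios of mean sums, CAPZ_KO over WT, were 1.94, 2.2 and 8.3 for the 3 macrophage lists, next to fitted ratios of 2.87 for Ctss, 2.74 for Lgmn and 13.0 for Cd63. They were 2.67 for stellate cell, 2.04 for neutrophil, 1.92 for cholangiocyte, 1.11 for endothelial and 1.1 for T and NK cell markers. B cell markers had 0.838 and hepatocyte markers 0.311. Ratios like those of the general macrophage and Kupffer cell lists were thus not particular to macrophage markers.

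Markers of other cell types were also read, against the same shares of all genes (22.4% higher and 19.0% lower). Of 8 stellate cell markers 7 were higher, with sums of 871 to 1350.2 CPM in CAPZ_KO and 356 to 425 CPM in WT. Of 6 cholangiocyte markers 3 were higher, with sums of 49.4 to 76.1 CPM in CAPZ_KO and 16.3 to 47.1 CPM in WT. Of 7 endothelial markers 2 were higher, near the share of all genes, with a median log2 fold change of −0.006. The endothelial sums were 317 to 486 CPM in CAPZ_KO and 250.1 to 404 CPM in WT. Of 5 T and NK cell markers (sums of 9.31 to 16.6 CPM in CAPZ_KO and 3.62 to 17.5 CPM in WT) and 4 B cell markers (2.66 to 13.1 CPM in CAPZ_KO and 2.34 to 12.9 CPM in WT), 0 passed by edgeR, DESeq2 or limma-voom, also at an unadjusted p under 0.05. Of 4 tested neutrophil markers 1 was higher, with sums of 28.5 to 53.7 CPM in CAPZ_KO and 9.87 to 35.1 CPM in WT. In each list at least 1 WT library had reads for every marker tested. The part of these cells in the differences of the lysosomal genes was not tested.

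**Figure D5:**
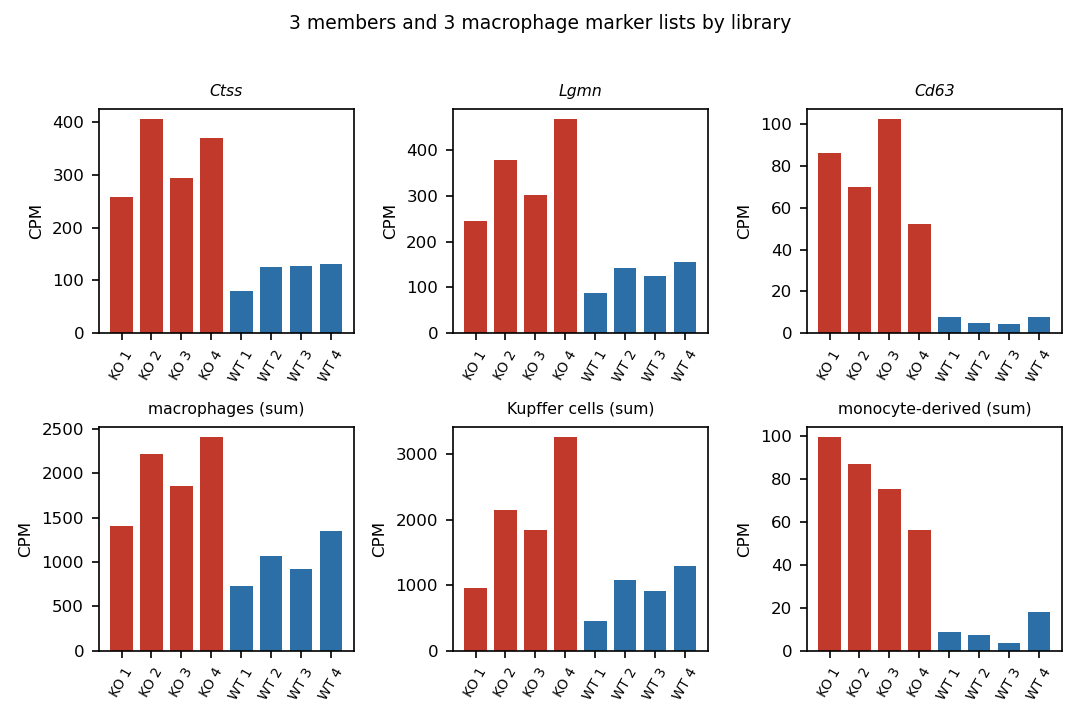
CPM after TMM in each library (bars, CAPZ_KO red and WT blue) of Ctss, Lgmn and Cd63 and, in the lower row, the summed CPM of the marker lists of macrophages, Kupffer cells and monocyte-derived macrophages. CAPZ_KO 1 and WT 1 are lowest of their groups for Ctss, Lgmn and the first 2 lists, and CAPZ_KO 4 is lowest of CAPZ_KO for Cd63 and the third list. CAPZ_KO 1 and WT 1 are also lowest for the endothelial markers and each for most of the lysosomal genes (not shown).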

How the data were processed

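The deposited table gives unscaled read counts by gene symbol for 4 CAPZ_KO and 4 WT liver libraries, as the authors counted them. Libraries were made with a stranded mRNA kit, per the labels' protocols. The submitters' processing notes name build mm10 and the tools edgeR, R 3.3.1, featureCounts, STAR 2.5.3a and bcl2fastq. Not given in the sources used here are the annotation, the strand setting and how reads matching several genes were treated. Exons of Ctsa, Ctsb, Ctsl, Ctsz, Hexa, Ppt1, Npc1, Lamp1 and Grn overlap a gene on the opposite strand, and those of Ctsd, Ctsl and Glb1 a gene on the same strand, in GENCODE vM21 (GRCm38, the assembly that mm10 names), so their counts may be divided. Of the related genes named, exons of Hyal1, Scpep1, Slc15a3, Cln6, Vps29, Gnptg, Mlst8, Sqstm1 and Gabarapl1 overlap another gene. That annotation held 95.7% of the symbols and gave positions and exon lengths.

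Of 24421 symbols 6905 had no count. Filtering with filterByExpr (edgeR 4.0.16 in R 4.3.3; at least 10 counts, 15 in total) left 12985. Counts were scaled by TMM (factors 1.18 to 1.33 in CAPZ_KO and 0.774 to 0.847 in WT) and tested by edgeR's robust quasi-likelihood test over all 8 libraries with no covariate, with Benjamini-Hochberg adjustment over all genes and a threshold of 0.05. The common biological coefficient of variation was 24.9%. For Capzb, log2(CPM + 1) differed by −0.72 (two-sided exact permutation test, p = 0.0286, the lowest possible with 70 arrangements). The same steps, tested on simulated data of 11929 genes for CAPZ_KO against WT, recovered 5 of 50 genes changed 1.5-fold, 24 of 50 changed 2-fold, 46 of 50 changed 4-fold and 48 of 50 changed 8-fold, and called 5 of 11719 unchanged genes.

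Members and lists were chosen with earlier results of these data known, so no list was tested as a set. Named genes were the 32 members, Capzb, and up to 3 called genes per direction with the smallest p in each list. No library was a duplicate: within groups, chi-square over its degrees of freedom was 26.4 to 153.3 for each pair. Alternatives were other scalings and filters, DESeq2 1.42.0, limma-voom (limma 3.58.1), a non-robust dispersion, a threshold of 0.01, the replicate number or sex as a term, each library left out, and, chosen after seeing the data, both female libraries left out.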

Additional observations from a re-analysis of the deposited data

Results flagged for a closer look

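Of 66 groups of 4 libraries examined (the 32 members, Capzb, both groups), 5 (7.58%) had 1 library set apart from the other 3 by most of the group's range, and chance alone sets apart about 1 in 20. In CAPZ_KO, Mcoln1 was at 20.5 CPM in CAPZ_KO 1 (24.2 to 24.7 in the others), Tfeb at 6.44 CPM in CAPZ_KO 1 (9.41 to 10.0 in the others) and Mitf at 4.93 CPM in CAPZ_KO 2 (6.47 to 6.70 in the others). In WT, Ctss was at 79.7 CPM in WT 1 (125 to 131 in the others) and Tfeb at 7.29 CPM in WT 1 (9.87 to 10.2 in the others).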

How the results depend on the processing

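Scaled by library size only, 7665 genes rose and 700 fell by edgeR, 27 members were higher and 0 lower, the members' median was 1.05 and Capzb was at −0.10 (adjusted p = 0.442). Signs turned there for Ctsz (0.59), Gaa (0.20), Neu1 (0.56), Fuca1 (0.42), Smpd1 (0.48), Scarb2 (0.19), Mcoln1 (0.0123) and Tfeb (0.53), with upper-quartile factors for Ctsz (0.0518) and Neu1 (0.0193), and for Lamp1 with DESeq2 factors (−0.0022), the DESeq2 test (−0.0022) and without both female libraries (−0.0568). A threshold of 0.01 left 1864 genes higher and 1439 lower, and 6 members higher and 1 lower. Leaving out 1 library gave 2371 to 2964 genes higher, 2100 to 2658 lower, 7 to 15 members higher, 2 to 5 lower, a members' median of 0.35 to 0.45 and Capzb at −0.82 to −0.66; it turned Tfeb without CAPZ_KO 1 (range −0.19 to 0.0123), Ctsz without WT 2 (−0.12 to 0.0114) and Lamp1 without CAPZ_KO 2, CAPZ_KO 4 or WT 1 (−0.0494 to 0.0630). The cause was not tested. The DESeq2 test called 17 members higher and 5 lower, against 3023 and 2847 of all 12985 genes. With limma-voom these were 15 and 4 members, against 2919 and 2437 of 12985 genes. Sex as a term gave 17 and 4 members, against 3018 and 2510 of 12985 genes. Both female libraries left out gave 11 and 3 members, against 2742 and 2108 of 13056 genes. Same-numbered libraries of the 2 groups deviated together with r of 0.244, 0.0089, 0.066 and 0.303 across genes. Differently numbered libraries had r of −0.291 to 0.108, below the 0.244 and 0.303 of numbers 1 and 4. CAPZ_KO 4 and WT 4 were also the only female libraries, so number and sex cannot be told apart for that pair. The main fit did not take the numbers as pairs. With them as a block, 15 members were higher and 5 lower, and 2974 and 2411 genes. The simulation recovered 5 of 50 genes changed 1.5-fold and 24 of 50 changed 2-fold. It had 11719 unchanged genes, while 41.4% of the genes tested here were called, so its recovery does not give that of these data. A member that did not pass may still differ, and how large a difference could be missed here is not known.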
